A study of Mus musculus with 6 samples.

Results

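The genes of the immunoglobulin constant regions and the J chain were examined in IngWAT, the inguinal white fat that lies under the skin, of WT and SAKI mice. The members were taken by gene name: the heavy chain genes Ighm, Ighd, Ighg1, Ighg2b, Ighg2c, Ighg3 and Igha, the light chain genes Igkc and Iglc2, and Jchain, which are 10 of the 34745 genes in the files. All 10 had counts in every library and all 10 passed the filter on low counts. Poly(A) RNA-seq libraries were made from 3 WT and 3 SAKI mice, 1 library per mouse. SAKI mice carry an LSL-Slc35d3 transgene, silent until Cre removes a stop sequence, and adiponectin-Cre, which is active in adipocytes. WT mice are the Slc35d3-WT; Adiponectin-Cre-/- controls, which do not express Cre. Both groups were males on a C57BL/6 background that were given NCD (10 kcal% fat) at 6 weeks of age, kept on it for 10 weeks and taken at 16 weeks, and the labels of both record PBS perfusion. Because the Cre acts in adipocytes, the transgene is not targeted to the lymphoid cells that make immunoglobulin.

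An antibody is built from heavy and light chains, and the constant region of the heavy chain sets its isotype. Naive B cells splice the same variable region to Ighm (IgM) and to Ighd (IgD). After activation, class switch recombination removes Ighm and Ighd from the rearranged locus and joins the variable region to a gene for IgG or IgA. Plasma cells secrete these antibodies in bulk, and the J chain links IgM and IgA into polymers. The inguinal depot holds a lymph node, and whether it was removed is not given in the sources used here. In bulk tissue, fewer cells of a type and less RNA per cell cannot be told apart.

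The libraries held 15354161 to 18787036 counts (median 15732636), and the 10 genes took 0.0886% to 0.136% of them. The level of Slc35d3, the targeted gene, was 73.3 to 82.1 CPM (counts per 1000000) in WT and 745 to 793 CPM in SAKI libraries. Counts were scaled with TMM factors, which set the bulk of genes equal between libraries, and tested in edgeR (quasi-likelihood), with p-values adjusted over the 15400 genes tested by the Benjamini-Hochberg method. The libraries of WT mice were not alike: on the leading principal component (47.9% of the variance), WT 1 (-40.6) and WT 3 (-58.1) lay apart from WT 2 (24.4), which lay among the SAKI libraries (21.0 to 27.8).

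Most heavy chain message was of the naive isotypes in both groups, and its share was higher in every SAKI library. The level per length was taken as FPKM (counts per kilobase of gene length and 1000000 counts), which depends on the gene lengths the authors used. Ighm and Ighd together made up 79.0%, 91.5% and 93.2% of the summed heavy chain FPKM in WT 1 to 3, and 95.4%, 95.5% and 96.1% in SAKI 1 to 3. The mean was 87.9% ± 7.78 in WT mice and 95.7% ± 0.404 in SAKI mice (SD, n = 3 each), a difference of 7.80 percentage points. WT 1 lay lowest, and without it the difference was 3.34 points. With CPM in place of FPKM the shares were 83.4%, 90.8% and 92.9% against 95.0%, 95.4% and 95.2%. The groups did not overlap on either scale.

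Of both parts of this share, the switched sum separated the groups and the naive sum did not. The summed CPM of Ighg1, Ighg2b, Ighg2c, Ighg3 and Igha was 167, 60.9 and 60.8 in the WT libraries, against 40.2, 44.9 and 44.6 in the SAKI libraries. Every SAKI library was thus below every WT library, with a mean of 43.2 ± 2.60 CPM against 96.3 ± 61.4 CPM (SD, n = 3 each) and a ratio of 0.449. The ratio was 0.710 without WT 1, a value computed after the values were seen. The summed CPM of Ighm and Ighd was 839, 601 and 801 in WT and 761, 932 and 888 in SAKI libraries, and the groups overlapped.

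**Figure D1:**
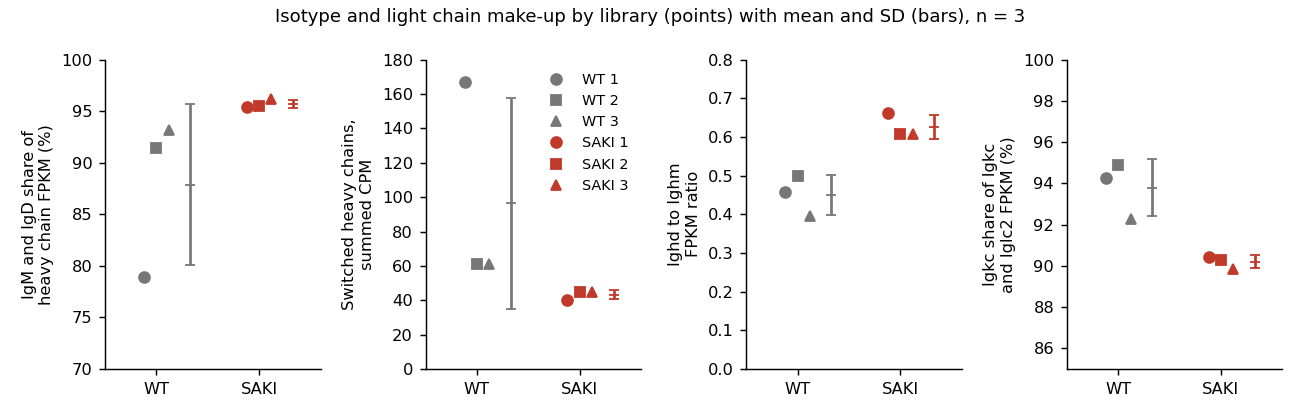
Make-up of immunoglobulin message in each library (points, 3 WT in grey and 3 SAKI in red) with the mean and SD (bars): the Ighm and Ighd share of heavy chain FPKM in %, the summed switched heavy chain CPM, the ratio of Ighd to Ighm FPKM, and the Igkc share of Igkc and Iglc2 FPKM in %. The axes of both shares do not start at 0. The groups do not overlap in any panel, and WT 1 stands apart in the first panel, at 79.0%, and in the second, at 167 CPM.

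None of the 10 genes passed an adjusted p of 0.05 in edgeR, where 0.0325% of all genes tested did (5 genes). At an unadjusted p under 0.05, edgeR listed 3 of the 10 as higher in SAKI mice (Ighd, Igha and Iglc2), against 8.36% of all genes, and 1 as lower (Ighg2c), against 9.99%. The groups did not overlap for the same 4 genes. Among all genes, every SAKI library was above every WT library in 13.0%, and below in 12.4%. The median log2 fold change of SAKI against WT over the 10 genes was -0.01, with 5 above and 5 below 0, and over all genes it was -0.0035. An exact permutation test over 3 against 3 mice cannot give a two-sided p below 0.1, and it gave 0.1 for each of these 4 genes and 0.2 to 1.0 for the other 6. DESeq2 called Ighd (adjusted p = 0.0177), Igha (0.0184) and Iglc2 (0.00314), and it called 4.70% of all genes.

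**Figure D2:**
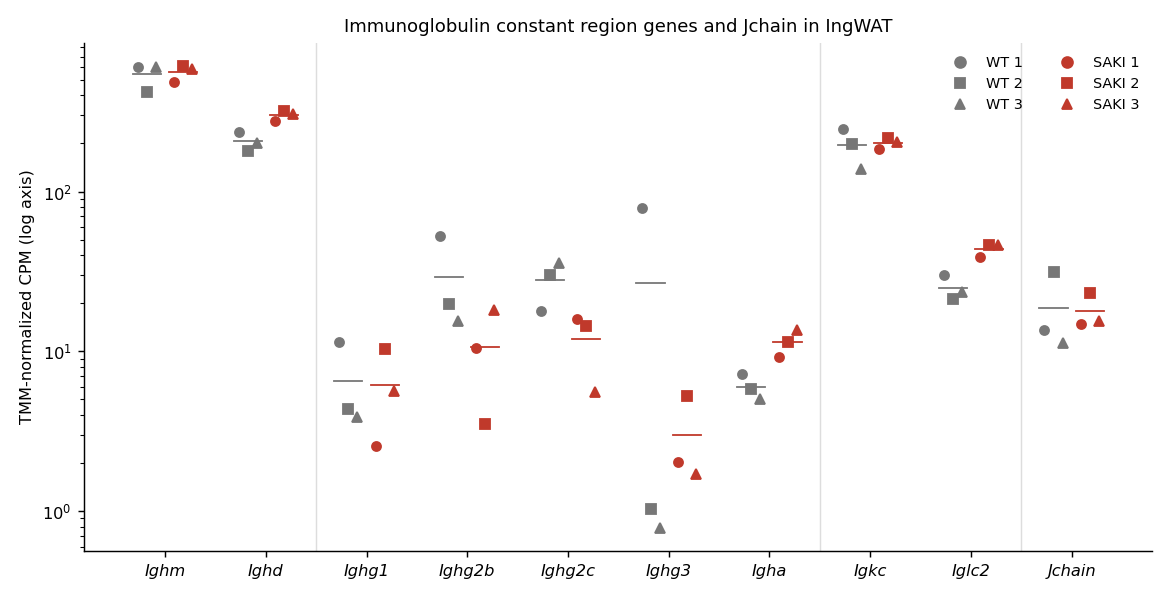
TMM-normalized CPM (log axis) of the 10 genes in each WT (grey) and SAKI (red) library, with the symbol giving the mouse number and a line at the mean of each group. Ighd, Igha and Iglc2 lie higher in all 3 SAKI libraries, Ighg2c lies lower, and Ighg3 spans from 0.786 to 78.4 CPM among the WT libraries.

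Among the naive isotypes, Ighd separated the groups and Ighm did not. Ighd encodes the constant region of IgD, a receptor of mature naive B cells, and lies on chromosome 12 of GRCm38 (113406604 to 113416324, minus strand). Its level was 236, 180 and 203 CPM in WT and 276, 319 and 304 CPM in SAKI mice. Each SAKI library was above each WT library. The means were 206 ± 28.5 and 299 ± 22.0 CPM (SD, n = 3 each). On the log2 scale the fold change was 0.54 (standard error, SE, 0.14; edgeR adjusted p = 0.173). Without WT 2 edgeR called Ighd at 0.45 (adjusted p = 0.047), but it then called 16.6% of all genes.

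Ighm, for the constant region of IgM, lies just upstream on the same strand (chromosome 12, 113418558 to 113422730). It was at 603, 421 and 599 CPM in WT and at 486, 613 and 585 CPM in SAKI mice. WT 2 was the lowest library and SAKI 2 the highest, and the groups overlapped. The log2 fold change was 0.05 (SE 0.18, edgeR adjusted p = 0.890). It was -0.10 without WT 2 and -0.16 with the B cell score described below in the model.

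The balance of both naive isotypes, a measure chosen after the values were seen, did not overlap between the groups. It contains Ighd, so it is not separate from the result for that gene. The ratio of Ighd to Ighm FPKM was 0.458, 0.498 and 0.395 in the WT libraries and 0.663, 0.608 and 0.607 in the SAKI libraries. Its mean was 0.450 ± 0.0520 in WT and 0.626 ± 0.0317 in SAKI mice (SD, n = 3 each). The gap between the groups, from 0.498 in WT 2 to 0.607 in SAKI 3, was little larger than the WT range of 0.395 to 0.498. Among single genes, every SAKI library was above every WT library in 13.0%.

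The IgG genes lie between Ighd and Igha on the minus strand of chromosome 12. They resemble one another, which bears on how reads are assigned. Their coding sequences were 85.7% identical between Ighg2b and Ighg2c and 74.1% to 76.3% identical in the other pairs (GENCODE transcripts on GRCm38). Of all 50-base stretches of their transcripts, 5.49% of those of Ighg2c and 4.15% of those of Ighg2b also occurred in another gene, and none of 100 bases did. The hinge exon, which joins the antigen-binding arms to the stem of the antibody, differs in length and in cysteine codons between the subclasses. It is shown here to tell apart the 4 genes whose levels are compared, with the codons for cysteine, which form the bonds between the heavy chains, in capitals.
Ighg3, chr12:113360529-113360576, minus strand: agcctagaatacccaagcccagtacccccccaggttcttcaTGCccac
Ighg1, chr12:113329844-113329882, minus strand: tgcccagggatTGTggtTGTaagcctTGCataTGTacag
Ighg2b, chr12:113307261-113307326, minus strand: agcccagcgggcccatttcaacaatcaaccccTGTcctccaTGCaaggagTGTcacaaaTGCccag
Ighg2c, chr12:113288263-113288325, minus strand: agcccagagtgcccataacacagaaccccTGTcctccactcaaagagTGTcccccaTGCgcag
The exon has 48 bases and 1 cysteine codon in Ighg3, 39 bases and 4 in Ighg1, 66 bases and 4 in Ighg2b, and 63 bases and 3 in Ighg2c.

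Ighg2c, the subclass that C57BL/6 mice carry in place of Ighg2a, was the IgG gene that separated the groups. It spans 113285325 to 113288932 of chromosome 12 and was at 17.9, 29.8 and 35.7 CPM in WT mice and at 15.9, 14.4 and 5.53 CPM in SAKI mice. The lowest WT library, WT 1, and the highest SAKI library, SAKI 1, were close to each other. The means were 27.8 ± 9.05 and 11.9 ± 5.60 CPM (SD, n = 3 each). On the log2 scale the fold change was -1.23 (SE 0.42, edgeR adjusted p = 0.220).

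Ighg3 showed the widest range of the 10 genes, and 1 library set it. Its counts were 1277, 16 and 12 in WT 1 to 3 and 31, 81 and 33 in SAKI 1 to 3, that is 78.4, 1.04 and 0.786 CPM against 2.02, 5.24 and 1.71 CPM. WT 1 was far above the other 5 libraries, and WT 2 and WT 3 were below all 3 SAKI libraries. The log2 fold change of -3.17 had a standard error of 1.64 (adjusted p = 0.340 from edgeR), and without WT 1 it was 1.70 (adjusted p = 0.292), the opposite direction. With all 6 libraries some methods gave much smaller differences, -0.71 with limma-voom and -0.84 or -0.64 on FPKM with a pseudocount of 1 or 0.1. Others did not, with -3.15 from DESeq2, -3.13 with upper-quartile scaling and -3.82 with the B cell score in the model. Ighg3 (chromosome 12, 113359575 to 113361232) made up 68.6% of the switched heavy chain FPKM in WT 1 and 2.65% to 23.3% in the other libraries. The FPKM of Ighg3 rest on a length of 1082 bases, that of its secreted transcript alone, against 2512 bases of merged exons in GENCODE M21, so its level per length is raised against the other genes. Of the summed CPM, compared after the values were seen, Ighg3 held 46.8% in WT 1 and 1.29% to 11.7% elsewhere.

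Ighg2b and Ighg1 overlapped between the groups. For Ighg2b, an IgG subclass that fixes complement (chromosome 12, 113302965 to 113307933), the levels were 52.3, 19.8 and 15.4 CPM in WT and 10.6, 3.49 and 18.1 CPM in SAKI mice. SAKI 3 lay above WT 3, and the log2 fold change was -1.44 (SE 0.65, edgeR adjusted p = 0.290). Without WT 1 it was -0.71. Ighg1, the subclass tied to type 2 responses (chromosome 12, 113325240 to 113330523), had 11.5, 4.34 and 3.86 CPM in WT and 2.54, 10.3 and 5.63 CPM in SAKI mice. WT 1 and SAKI 2 were the high libraries of their groups. The log2 fold change was -0.09 (SE 0.59, edgeR adjusted p = 0.946), and it was 0.59 without WT 1 and 0.27 without SAKI 1.

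Igha, for the IgA of mucosal secretions, ran opposite to the summed IgG genes. It is the last constant gene of the locus (chromosome 12, 113254830 to 113260236) and was at 7.18, 5.84 and 5.04 CPM in WT and at 9.19, 11.4 and 13.6 CPM in SAKI mice. All SAKI libraries were above all WT libraries. The means were 6.02 ± 1.08 and 11.4 ± 2.20 CPM (SD, n = 3 each). On the log2 scale the fold change was 0.92 (SE 0.22, edgeR adjusted p = 0.166). Its share of the switched heavy chain FPKM was 2.27%, 7.34% and 6.13% in the WT libraries and 17.4%, 18.3% and 26.7% in the SAKI libraries, with no overlap. The IgG genes held the rest, 92.7% to 97.7% in WT and 73.3% to 82.6% in SAKI libraries. The leading IgG subclass was not shared by all mice of a group. In WT 1 Ighg3 led, in WT 2, WT 3, SAKI 1 and SAKI 2 Ighg2c led with 58.4%, 67.5%, 46.9% and 35.7%, and in SAKI 3 Ighg2b led with 35.7%.

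The light chains divided like the naive heavy chains, with 1 gene that separated the groups and 1 that did not. Igkc encodes the constant region of kappa, which most mouse antibodies use, and lies on the plus strand of chromosome 6 from 70726435 to 70726966. It was at 248, 198 and 139 CPM in WT and at 184, 215 and 205 CPM in SAKI mice, and all SAKI values lay within the WT range. The log2 fold change was 0.05 (SE 0.21, edgeR adjusted p = 0.919), and -0.15 without WT 3.

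Iglc2, a constant gene of lambda on the minus strand of chromosome 16 (19198396 to 19200351), was at 30.3, 21.3 and 23.4 CPM in WT and at 38.8, 46.2 and 46.4 CPM in SAKI mice. Each SAKI library was above each WT library. The means were 25.0 ± 4.67 and 43.8 ± 4.29 CPM (SD, n = 3 each), and the log2 fold change of 0.81 (SE 0.16, edgeR adjusted p = 0.151) had the smallest p of the 10 genes. edgeR called it without WT 2 (0.71, adjusted p = 0.029), where 16.6% of all genes were called, and with the B cell score in the model (0.63, adjusted p = 0.048), where 6.03% were.

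Iglc2 has a close copy, Iglc3. Their coding sequences, of 315 bases in Iglc2 and 314 in Iglc3, were lined up at the 3' end. The stretch shown here, the first 120 of the 314 bases compared, shows how few bases separate them (differing bases in capitals).
Iglc2, chr16:19198733-19198852, minus strand: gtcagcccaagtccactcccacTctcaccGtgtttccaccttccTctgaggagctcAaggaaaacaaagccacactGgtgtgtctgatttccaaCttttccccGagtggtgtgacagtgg
Iglc3, chr16:19065562-19065681, minus strand: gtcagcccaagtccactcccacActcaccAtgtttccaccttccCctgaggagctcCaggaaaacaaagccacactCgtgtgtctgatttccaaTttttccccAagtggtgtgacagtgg
They differ at 7 of these 120 bases and at 11 of the 314 coding bases compared, and 7.65% of the 50-base stretches of Iglc2 also occur in Iglc3, so counts could pass from one to the other. Iglc3 itself had a log2 fold change of 0.86 (SE 0.17, edgeR adjusted p = 0.153) and Iglc1, the other functional lambda constant gene tested, 0.78 (SE 0.20, adjusted p = 0.176). Both were higher in every SAKI library. Of the other constant regions, Ighe, for IgE, had 5, 2 and 3 counts in WT and 0, 2 and 16 in SAKI libraries and was not tested. The count of 0 in SAKI 1 allows a level of up to 0.196 CPM (3 counts).

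Kappa held a smaller share of the light chain message in SAKI mice. Igkc made up 94.2%, 94.9% and 92.3% of the FPKM of Igkc and Iglc2 in WT 1 to 3 and 90.4%, 90.3% and 89.9% in SAKI 1 to 3. The means were 93.8% ± 1.37 and 90.2% ± 0.306 (SD, n = 3 each). The FPKM of Iglc2 rest on a length of 1064 bases, against 612 bases of merged exons in GENCODE M21, while Igkc has 532 bases in both. The level of Iglc2 per length is thus lowered and the share of Igkc raised. With CPM in place of FPKM the shares were 89.1%, 90.3% and 85.6% against 82.5%, 82.3% and 81.6%. With Iglc1 and Iglc3 counted as lambda too, the shares were 85.6%, 83.1% and 81.1% against 75.2%, 75.3% and 74.0%, and the groups again did not overlap.

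Jchain, the linker of polymeric IgM and IgA and a marker of antibody-secreting cells, did not separate the groups. It lies on the minus strand of chromosome 5 (88519809 to 88527891) and was at 13.5, 31.3 and 11.3 CPM in WT and at 14.9, 23.0 and 15.4 CPM in SAKI mice. WT 2 was the highest library. The log2 fold change was -0.07 (SE 0.40, edgeR adjusted p = 0.934), and 0.52 without WT 2.

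In WT mice the order of mean levels per length was Igkc (367 FPKM), Ighm (242), Ighd (108), Ighg3 (25.9), Iglc2 (23.4), Ighg2c (14.1), Ighg2b (9.90), Jchain (5.05), Ighg1 (2.29) and Igha (2.00). The place of Ighg3 rested on its short length and on WT 1, at 76.0 FPKM against 0.931 and 0.694 in the other WT libraries. That of Iglc2 rested on a long length, 1064 bases against 612 in GENCODE M21. Igkc and Ighm overlapped in WT mice, and so did Ighg3 and Iglc2 and every neighbouring pair from Ighg2c down. In SAKI mice the order was Igkc (381), Ighm (255), Ighd (159) and Iglc2 (41.5), with no overlap between these 4. Below them Ighg2c (6.18), Jchain (4.90), Igha (3.84), Ighg2b (3.62), Ighg3 (2.78) and Ighg1 (2.15) overlapped, each with the next.

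**Figure D3:**
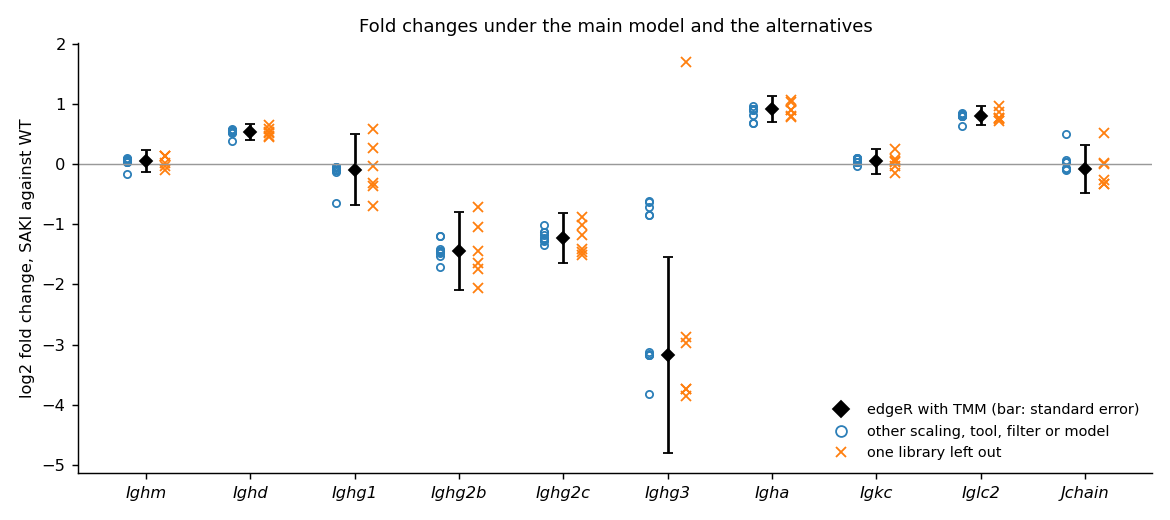
Log2 fold change of SAKI against WT for the 10 genes from edgeR with TMM scaling (black, bar for the standard error), under other scalings, tools, filters or models (blue circles) and with each library left out (orange crosses). Ighd, Igha and Iglc2 stay above 0 and Ighg2b and Ighg2c below 0 in all of them, while Ighg3 moves from -3.17 to 1.70 without WT 1.

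B cells carry the naive isotypes, and their markers were present in all 6 libraries. The 13 B cell markers (among them Ms4a1, Cd79a and Pax5) summed to 1118, 632 and 966 CPM in WT and 989, 1144 and 1105 CPM in SAKI mice. WT 2 was the lowest library, as it was for Ighm and Ighd. All 13 had a log2 fold change above 0 (median 0.29), as did 7641 of the 15400 genes tested. None of the 13 was called by edgeR. At an unadjusted p under 0.05 in edgeR 3 of the 13 were higher, against 8.36% of all genes. They were Fcer2a (CD23) at 0.52, Blk at 0.47 and Fcrla at 0.47 (adjusted p = 0.185, 0.246 and 0.246). Per summed B cell marker CPM, the naive heavy chains stood at 0.751, 0.950 and 0.830 in WT and 0.770, 0.814 and 0.804 in SAKI libraries, which overlapped. The switched heavy chains stood at 0.150, 0.0963 and 0.0630 in WT and 0.0407, 0.0392 and 0.0403 in SAKI libraries, lower in every SAKI library. With the B cell score (the mean log2 CPM of the 13 markers) as a covariate, the log2 fold change of Ighd was 0.39.

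The genes of plasma cells and of class switching did not move as one. Of 12 plasma cell genes tested, none was called by edgeR. At an unadjusted p under 0.05 in edgeR, 1 was higher and 2 were lower, against 8.36% and 9.99% of all genes. Sdc1 (syndecan-1, which epithelia and other cells also make) was lower at -1.20. Xbp1, a factor for secretion used by many cell types, was lower at -0.90. Derl3, of protein quality control in the ER, was higher at 1.20. The edgeR adjusted p was 0.173, 0.210 and 0.239 in that order. Among more restricted genes, Mzb1, a chaperone of antibody assembly, was at -0.06. Tnfrsf17 (BCMA) had too few counts to be tested, 2, 8 and 4 in WT and 11, 9 and 17 in SAKI libraries. Its level was 0.123, 0.519 and 0.262 CPM in WT and 0.717, 0.582 and 0.879 CPM in SAKI libraries, with no overlap. Among all genes tested, every SAKI library was above every WT library in 13.0%. Of 8 germinal center and switching genes tested, none was called. At an unadjusted p under 0.05 in edgeR, 1 was higher and 2 were lower, against 8.36% and 9.99% of all genes. Nuggc, a GTPase of germinal center B cells, was lower at -2.0. S1pr2, a receptor that keeps B cells in the germinal center, was lower at -0.62, and Gcsam was higher at 0.65. The edgeR adjusted p was 0.182, 0.242 and 0.210 in that order.

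Signals and receptors for antibody were measured as well. Of 5 genes tested for switch and survival signals all lay above 0, as did 7641 of the 15400 genes tested. Cd40lg, the T cell signal for switching, was at 0.80 (edgeR adjusted p = 0.195), Tnfsf13b (BAFF) at 0.43 and Tnfsf13 (APRIL) at 0.33. Cxcl12 was at 0.12 and Tgfb1 at 0.0027. The groups overlapped for Tnfsf13, Cxcl12 and Tgfb1. For Cd40lg and Tnfsf13b every SAKI library was above every WT library, as in 13.0% of all genes. Of 10 immunoglobulin receptors, Trim21, which binds antibody inside cells (0.49, adjusted p = 0.157) and Fcgr4, an activating receptor for IgG (0.72, adjusted p = 0.198) had an unadjusted p under 0.05, both higher. At that p in edgeR, 8.36% of all genes were higher. Fcgr2b, the inhibitory receptor for IgG on B cells and macrophages, was at 0.70 (adjusted p = 0.277). None of these genes was called by edgeR.

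Markers of other cells of the tissue also differed in level between the groups. The 10 T cell markers summed to 243 to 394 CPM in WT and 465 to 542 CPM in SAKI libraries. Of the 10, 9 were higher in every SAKI library, against 13.0% of all genes. Examples were Cd3g (0.93) and Cd4 (0.81), both with an edgeR adjusted p of 0.148. The lymph node stroma and high endothelial venule list summed to 104 to 110 CPM in WT and 151 to 182 CPM in SAKI libraries, with Glycam1, made by high endothelial venules, at 1.59 (adjusted p = 0.148), Chst4 at 0.74 and Madcam1 at 0.84. Glycam1 was at 18.3, 38.5 and 21.5 CPM in WT and at 73.8, 75.5 and 86.9 CPM in SAKI libraries. Cxcl13, the largest part of the sum in WT, was at 88.5, 66.9 and 78.4 CPM in WT and at 71.8, 100 and 80.1 CPM in SAKI libraries. Its groups overlapped (log2 fold change 0.11). Of that list Ccl21a and Ccl19 were listed at 0 in every library, and 50.3% and 39.3% of their 100-base stretches also occur in other genes. The 7 macrophage markers summed to 484 to 1217 CPM in WT and 1138 to 1372 CPM in SAKI libraries, which overlapped. The 9 adipocyte markers summed to 16089 to 20416 CPM in WT and 14042 to 15697 CPM in SAKI libraries, with no overlap. edgeR called none of these marker genes. The part of these cell markers in the differences of Ighd, Igha, Iglc2 and Ighg2c was not tested.

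The variable segments, which give each antibody its binding site, were counted apart from the constant regions. The files list 350 segments, of which 112 had no count and 113 passed the filter. No segment was called by edgeR. At an unadjusted p under 0.05, 24 were higher and 2 lower (Igkv3-2 at -2.33 and Igkv12-47 at -1.97). Of the 113, 89 lay above 0, with a median of 0.52. Among all genes tested 7641 of 15400 lay above 0, with a median of -0.0035. In 30 of the 113 every SAKI library was above every WT library, and in 1 below, against 13.0% and 12.4% of all genes. At the same unadjusted p in edgeR, 8.36% of all genes were higher and 9.99% lower. Segments resemble one another, so the assignment of reads among them is uncertain, and 3 names, Igkv12-47 among them, belong to more than 1 gene ID each.

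The most counted heavy chain segment took a larger share in every WT library than in any SAKI library, and it was a different one in each WT mouse. These segments were picked after the values were seen. In WT 1, Ighv1-78 had 264 of 1649 heavy chain segment counts, 16.0% (95% Wilson interval 14.3% to 17.9%), against 3 to 22 counts in the other libraries. In WT 2, Ighv1-9 had 226 of 996 counts, 22.7% (20.2% to 25.4%), against 19 to 44 elsewhere. In WT 3, Ighv9-3 had 197 of 1188 counts, 16.6% (14.6% to 18.8%), against 10 to 82 elsewhere. The leading heavy chain segment of SAKI 1 to 3 held 5.27%, 5.34% and 5.90%, and in SAKI 2 and SAKI 3 it was the same, Ighv1-26.

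Light chain segments had the same pattern in WT 1 and WT 2. Igkv4-61 held 466 of 3056 counts in WT 1, 15.2% (14.0% to 16.6%), with 5 to 22 counts in the other libraries. Igkv3-2 held 471 of 2123 counts in WT 2, 22.2% (20.5% to 24.0%), with 31 to 65 elsewhere. In WT 3 the leading segment, Igkv12-47, held 7.18% (6.12% to 8.40%), near the 5.62%, 5.23% and 7.55% of the leading segments of SAKI 1 to 3. Iglv1, the lambda segment that leads in SAKI 2 and SAKI 3, had 131, 186 and 71 counts in WT and 123, 164 and 270 in SAKI libraries (log2 fold change 0.40), and Igkv1-117 had 175, 47 and 94 against 87, 120 and 132 (0.02). Intervals cover counting error only, since reads from PCR are not independent molecules, and whether 1 cell clone or several gave the leading segments was not tested.

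**Figure D4:**
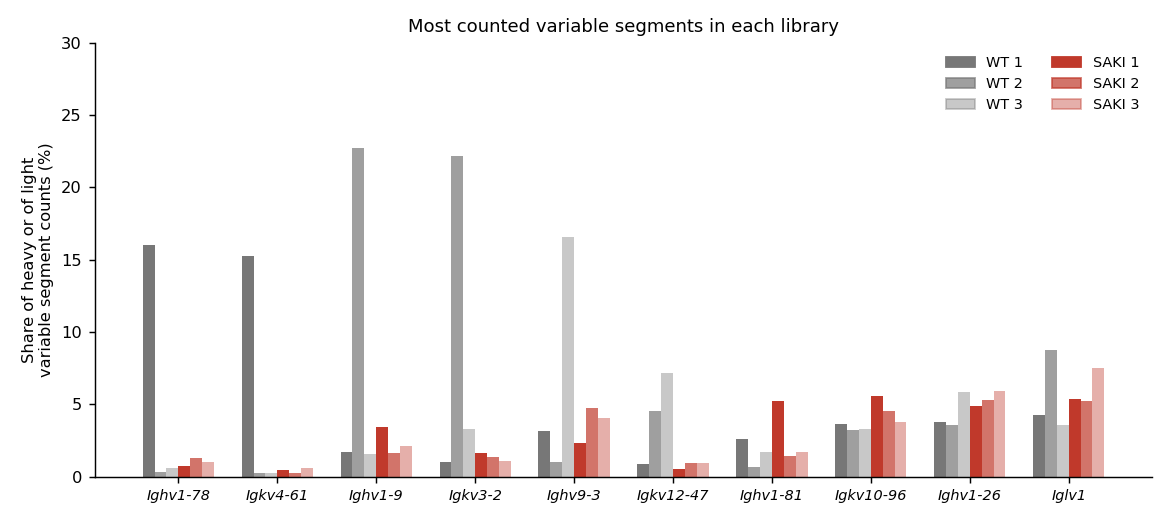
Share, in %, of the heavy chain (Ighv) or light chain (Igkv and Iglv) segment counts of each library for the segments that led in at least 1 library (WT in greys, SAKI in reds). Ighv1-78 and Igkv4-61 stand out in WT 1, at 16.0% and 15.2%, Ighv1-9 and Igkv3-2 in WT 2, at 22.7% and 22.2%, and Ighv9-3 in WT 3, at 16.6%, while Ighv1-81 and Igkv10-96, the leaders of SAKI 1, are at 5.27% and 5.62% there.

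Genes outside the immunoglobulin loci were ranked by how closely their log2 CPM followed the log2 of the summed FPKM of the naive or the switched genes. The ranking covered 14463 genes, over 6 libraries that share their depth and scaling. The highest r of so many genes over 6 libraries can lie near 1 by selection alone, so the ranking is a description only. With Ighm and Ighd, the 5 closest were H2-DMb2 (Pearson r 0.994), Blnk (0.994), B630005N14Rik (0.993), Usp6nl (0.992) and Evi2b (0.987). H2-DMb2, of antigen loading, ran from 43.8 CPM in WT 2 to 76.7 CPM in SAKI 2, and Blnk is an adaptor of the B cell receptor. With the switched sum they were Marcks (0.988), Rnf8 (0.987), Plvap (0.983), Rmnd5b (0.980) and Ajuba (0.980). This likeness followed WT 1: Ajuba was at 66.8 CPM there and at 17.0 to 23.9 CPM in the other libraries.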

How the data were processed

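RNA-seq counts of 6 IngWAT libraries (3 WT and 3 SAKI mice, grouped and numbered by the sample labels) were used. For each library the authors deposited raw counts per gene, which are not normalized, and for all libraries a table of FPKM, in which each count is divided by gene length and library total. The submitters' processing notes list GRCm38 as the build and, with no role, StringTie 1.3.0, HISAT2 2.0.4 and Bowtie2 2.2.6. Counting tool, annotation release, strand setting and read length: not given in the sources used here. Reads shared by overlapping genes can therefore not be separated. The gene lengths implied by the FPKM (1082 bases for Ighg3, 3001 for Igha) differ for several members from the merged exons of the GENCODE M21 annotation (2512 and 2668), and levels between genes depend on them. The labels name a MJzol kit for RNA extraction and the study's methods Trizol.

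Counts were fitted with edgeR 4.0.16 in R 4.3.3: filterByExpr (minimum count 10, total 15), TMM factors, a model of genotype, the quasi-likelihood F test, and a call at an adjusted p under 0.05. The common biological coefficient of variation was 23.3%. Exact permutation tests over mice were two-sided, on log2 CPM with a prior count of 2. Shares were described without a test. Members and gene lists were chosen with earlier results of these data known. The genes named are all members, up to 3 of smallest p per list, the 3 variable segments of highest mean CPM, and the 5 most alike in pattern of at least 1 CPM. The segments that lead single libraries, the Ighd to Ighm ratio, Ighe, Mzb1, Tnfrsf17, Cxcl13, Cxcl12, Tgfb1 and the lowest segments were picked after the values were seen. Sequences and transcript stretches are from GENCODE M21 on GRCm38. On simulated counts of 15237 genes for SAKI against WT, the calls covered 2 of 66 genes set 1.5-fold apart, 25 of 66 at 2-fold, 64 of 65 at 4-fold, and 4 of 15040 left equal. Every simulated gene had the common variation of 23.3%, so these rates do not carry over to members of wider spread, such as Ighg3. Alternatives were upper-quartile or RLE scaling, limma-voom (limma 3.58.1), DESeq2 1.42.0, no filter and a mean of at least 1 CPM, a replicate block, a B cell score, FPKM with limma on log2(FPKM + 1) or log2(FPKM + 0.1), with an FPKM of at least 1 in 3 libraries or no filter, and each library left out. Whether the mice of a group came from separate litters or were processed together is not recorded. Some single genes are not reported here.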

Additional observations from a re-analysis of the deposited data

How the results depend on the processing

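Depth limits the switched genes, with as few as 12 counts of Ighg3 in a library, and 3 mice a group limit every test. The count of genes called, 5, was 724 with DESeq2, 8 with no filter on low counts, 928 with the B cell score, 9 on FPKM with either pseudocount, and 1 to 2598 with a library left out (1 without SAKI 3, 2 without SAKI 1 or SAKI 2, 2598 without WT 2). Of the 10 members 0 were called, against 3 with DESeq2, 1 with the B cell score and 0 to 2 with a library left out (2 without WT 2). The cause of these shifts was not tested. Mice of both groups share numbers 1 to 3, but deviations of same-numbered mice correlated at 0.0363, 0.0423 and 0.0893 and no mouse correlated best with its own number, so they were not treated as paired. The replicate block left 1 gene called and 0 members, and put Jchain at 0.041 and Ighg3 at -0.62.

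Jchain, at -0.07, was also above 0 with limma-voom (0.042), the B cell score (0.504) and FPKM with a pseudocount of 1 (0.042, and 0.042 with no filter) or 0.1 (0.066), and ran from -0.34 to 0.52 with a library left out (0.011 without SAKI 1, 0.020 without SAKI 3). With the B cell score Ighm was at -0.16 and Igkc at -0.032. With a library left out, Ighm ran from -0.10 without WT 2 to 0.14 (-0.035 without SAKI 2), Igkc from -0.15 without WT 3 to 0.25 (-0.026 without SAKI 2), Ighg1 from -0.69 to 0.59 (0.27 without SAKI 1) and Ighg3 from -3.85 to 1.70. DESeq2 gave no adjusted p for Ighg3. Over all alternatives Ighd stayed between 0.39 and 0.65, Igha between 0.69 and 1.07, Iglc2 between 0.63 and 0.97, Ighg2c between -1.51 and -0.88 and Ighg2b between -2.05 and -0.71. The naive share differed by 7.80 points, 18.9 with Ighd alone as naive, and 3.34 to 10.5 with a library left out. The kappa share differed by -3.60 points, -8.43 with all lambda genes, -6.19 on CPM and -4.37 to -3.05 with a library left out.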
